A study of Mus musculus with 8 samples.

Results

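The genes described here are 35 markers of cell division, read in white adipose tissue. They comprise 15 replication genes (Mcm2, Mcm3, Mcm4, Mcm5, Mcm6, Mcm7, Pcna, Tyms, Rrm2, E2f1, Ccne1, Gins1, Gins2, Cdc6 and Cdt1) and 20 mitosis genes (Mki67, Top2a, Ccnb1, Ccnb2, Ccna2, Cdk1, Bub1, Aurka, Aurkb, Plk1, Cdc20, Birc5, Foxm1, Cenpa, Cenpe, Ttk, Nusap1, Kif11, Kif20a and Ndc80). The members were taken by symbol, through the accession of each array probe, and 45 of the 55681 probes that are not controls carried one of them. Of the 35 genes, 34 passed the filter on dim probes, among 25115 gene names that did. Aurkb, a kinase of the chromosomal passenger complex, was not well above background in any of the 8 samples and is not tested below.

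Tissue came from mice aged 5 weeks on a mixed 129 × C57BL/6 background, all fed regular chow. The 4 WT samples were wild type, and the 4 Ad/NICD samples came from mice overexpressing N1ICD, the intracellular domain of the receptor Notch1. The labels describe all of them as biological replicates, but give neither the fat depot, the sex, nor the promoter that drives the domain. Each of 4 arrays held 1 WT and 1 Ad/NICD sample in different colours, and replicate numbers here are also array numbers. Red was read as Ad/NICD and green as WT, because the authors' value table holds the channels that way. The dye tags in the labels say the reverse, so the direction is only likely: if the tags are right, every sign below turns and every WT sample changes places with the Ad/NICD sample of its number. Dyes were never swapped, so dye and genotype cannot be told apart.

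A cell that divides first licenses its replication origins with Cdc6, Cdt1 and the MCM helicase, then copies its DNA with the help of the GINS complex and the sliding clamp Pcna, fed by nucleotides from Rrm2 and Tyms. The E2F factors switch these genes on late in G1. Mitosis genes follow later, when Foxm1 and its partners activate cyclins, kinases, kinetochore proteins and spindle motors. Mature adipocytes have left the cell cycle, and in fat the dividing cells are mostly progenitors, immune cells and vascular cells. In whole tissue, fewer cells of a type and less RNA per cell cannot be told apart.

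Some samples stood apart before any member was read. Spots well above background made up 58.1% to 68.6% of an array's spots in 1 colour, and with only 4 arrays the precision is limited. All 14 adipocyte markers were measured, with a median log2 signal of 13.2 to 14.7 over samples. Xist, the RNA that coats the inactive X, was above background in replicates 1 to 3 of both genotypes only, and the Y-linked Ddx3y in replicate 4 of both only. Relative to each gene's mean over 8 samples, the median of 10 skeletal muscle markers stood at 4.26 on the log2 scale in WT replicate 4. The median of 8 mammary epithelium markers stood at -2.49 and -2.51 in replicate 4 of WT and Ad/NICD. The probe for Notch1 had a mean log2 ratio of 0.36 ± 0.24 (SE, n = 4 arrays) and was higher in Ad/NICD on 2 of 4 arrays. Its ratios were 1.24, 0.35, -0.012 and -0.14 on arrays 1 to 4, so the mean rested mostly on array 1. The sources used here do not say whether the probe reads the overexpressed part.

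Replication and mitosis members carried different promoter motifs, a feature that the choice of members did not use. RefSeq windows of 300 bases (assembly GRCm38.p6, 250 before and 50 after the start) were found for 28 of the 35 members, 12 replication and 16 mitosis genes. They were searched on both strands for CCAAT, the NF-Y box, for TTTGAA, the cell cycle homology region or CHR that mitotic genes carry, and for GCGGGAA or GCGCGAA, cores of the E2F site. The CHR letters occurred in 11 of 16 mitosis promoters (68.8%) and in 1 of 12 replication promoters (8.33%), against 17.9% of all 32851 windows. Either E2F core occurred in 6 of 12 replication promoters (50%) and in 1 of 16 mitosis promoters (6.25%), against 6.00% of all windows. The NF-Y box occurred in 7 of 12 and 13 of 16, against 37.4%, and stood together with the CHR letters in 10 of 16 mitosis promoters (62.5%), in 1 of 12 replication promoters and in 6.95% of all windows. The larger lists had the same order: the CHR letters in 33 of 53 other mitosis genes (62.3%) and 8 of 38 other replication genes (21.1%), and an E2F core in 9 of 53 (17.0%) and 19 of 38 (50%). These are matches of letters, with no measure of binding.

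**Figure D1:**
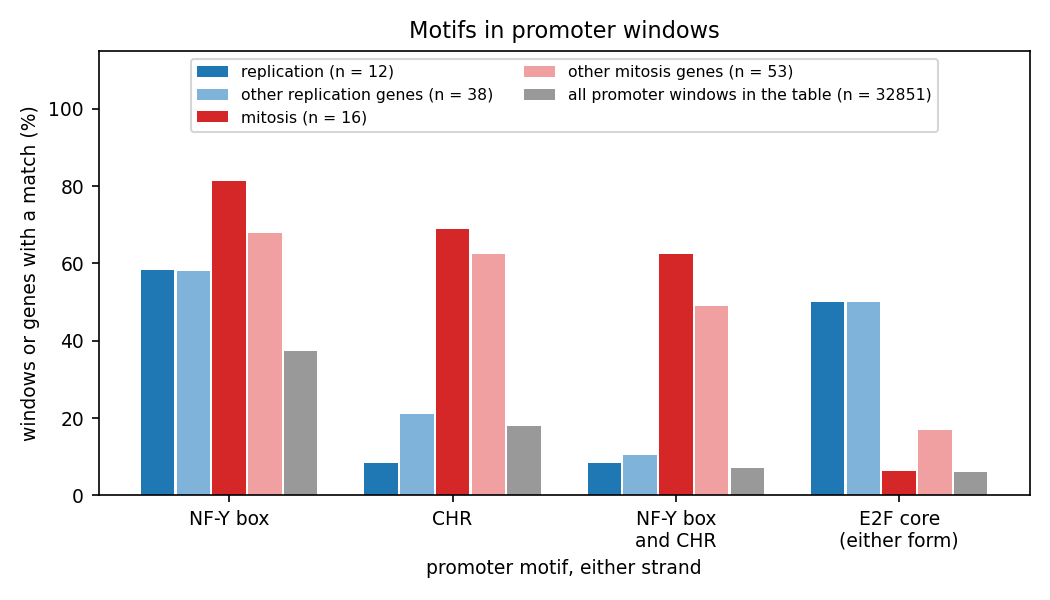
Share (%) of promoters that hold each motif on either strand, for replication and mitosis members (dark bars), the larger lists of replication and mitosis genes (light bars) and all 32851 windows (grey). The CHR bar is tall for both mitosis lists (68.8% and 62.3%), and the E2F bar for both replication lists (50% each).

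The promoters printed are those of the members with the lowest p in each group, among those with a window and a motif; Mcm5 and Cdc20 follow the difference, and Mcm2 and Bub1 do not. Each line gives the 250 bases before the start, 5′ to 3′ on the gene's strand, and capitals mark the motifs. Mcm5 (chr8:75109259-75109508, plus strand) holds an antisense GCGCGAA core, Mcm2 (chr6:88898781-88899030, minus strand) is the 1 replication promoter with CHR letters, Cdc20 (chr4:118437344-118437593, minus strand) holds the CHR letters between NF-Y boxes, and Bub1 (chr2:127831860-127832109, minus strand) has NF-Y boxes alone.
Mcm5: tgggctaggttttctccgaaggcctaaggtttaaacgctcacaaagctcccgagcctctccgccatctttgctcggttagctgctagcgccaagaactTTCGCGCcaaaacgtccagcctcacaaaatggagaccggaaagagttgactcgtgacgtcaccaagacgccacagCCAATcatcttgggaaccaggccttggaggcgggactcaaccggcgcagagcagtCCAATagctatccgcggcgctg
Mcm2: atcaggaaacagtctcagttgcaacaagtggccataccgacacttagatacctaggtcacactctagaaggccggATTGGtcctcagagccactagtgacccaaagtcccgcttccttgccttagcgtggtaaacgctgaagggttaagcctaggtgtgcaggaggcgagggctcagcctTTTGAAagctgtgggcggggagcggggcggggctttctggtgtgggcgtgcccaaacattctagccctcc
Cdc20: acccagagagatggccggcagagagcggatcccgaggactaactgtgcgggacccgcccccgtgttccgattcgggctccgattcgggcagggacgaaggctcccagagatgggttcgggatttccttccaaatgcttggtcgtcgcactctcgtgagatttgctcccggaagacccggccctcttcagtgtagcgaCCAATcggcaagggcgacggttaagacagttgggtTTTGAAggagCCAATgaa
Bub1: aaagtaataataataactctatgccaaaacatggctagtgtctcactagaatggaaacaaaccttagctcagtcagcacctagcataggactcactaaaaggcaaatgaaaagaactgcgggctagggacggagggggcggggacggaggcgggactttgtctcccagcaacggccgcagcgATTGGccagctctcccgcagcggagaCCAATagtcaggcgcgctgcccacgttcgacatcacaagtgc

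The comparison asked whether overexpression of the Notch1 intracellular domain goes with a different level of division genes in fat. None of the 34 measured members differed between Ad/NICD and WT at an adjusted p under 0.05 in the limma fit of the 4 log2 ratios, with Benjamini-Hochberg adjustment over all 25115 gene names. That fit called 12 gene names, or 0.0478%. The lowest adjusted p was 0.318 for Mcm4 among replication genes and 0.364 for Foxm1 among mitosis genes. At an unadjusted p under 0.05, 1 of 15 replication genes (Mcm4) and 0 of 19 mitosis genes were higher in Ad/NICD, against 6.25% of all gene names, and none was lower, against 8.98%. With the array as a random block the lowest adjusted p was 0.174 and 0.249, and that fit called 0 of 34 members and 1.99% of gene names. With no block it was 0.231 and 0.326, with 0 of 34 members and 1.03% of gene names called. Every 95% confidence interval of a member lay within 1 log2 unit of 0, and 33 of 34 held 0. For no member did the levels of WT and Ad/NICD separate, against 9.79% of gene names.

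The signs of the mean ratios leaned 1 way after loess. The mean log2 ratio of Ad/NICD over WT was above 0 for 13 of 15 replication and 18 of 19 mitosis genes, where 48.4% of all gene names were. Its median was 0.12 over replication genes and 0.15 over mitosis genes, against -0.0059 over all gene names. In the authors' value table the medians were 0.17 and 0.19, with 14 of 15 and 18 of 19 means above 0. All gene names had -0.033, 0.044, -0.0048 and -0.022 there on arrays 1 to 4. From the scanner's processed signals, median-centred, the member medians were 0.21 and 0.24, with 14 of 15 and 19 of 19 above 0. All gene names then had -0.12, 0.13, 0.058 and 0.094 by array. The share of gene names above 0 was not counted for either. With median centring of each array in place of loess, the medians were -0.24 and -0.26, below 0, where all gene names had -0.32. Only 1 of 15 and 1 of 19 means were then above 0. Set against that shift, 9 of 15 and 14 of 19 members lay above the median gene, fewer than the 13 and 18 after loess. As many gene names lie above the median gene as below it. Relative to the median gene, the list medians were 0.077 and 0.056, against 0.12 and 0.15 after loess. Few members kept 1 sign over arrays: 2 of 15 replication genes (Mcm4 and Tyms) and 0 of 19 mitosis genes were above 0 on all 4, against 11.1% of gene names, and none was below 0 on all 4, against 13.3%.

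The arrays disagreed, and they did so alike for almost every mitosis gene. The median log2 ratio over mitosis genes was -0.33, 0.50, 0.37 and 0.11 on arrays 1 to 4. All 19 lay below 0 on array 1, all 19 above 0 on array 2, and 18 on each of arrays 3 and 4. The exceptions were Cenpa, the centromeric histone, at -0.14 on array 3 and the mitotic kinase Plk1 at -0.017 on array 4. Replication genes had medians of -0.045, 0.44, 0.39 and -0.081, with 6, 15, 15 and 6 of 15 above 0. After loess the medians over all gene names were -0.024, -0.012, -0.0059 and 0.0065. Replication and mitosis genes were thus both high in Ad/NICD on arrays 2 and 3, and they parted on arrays 1 and 4. Under median centring the medians kept their signs on arrays 1 to 3, and that of mitosis genes on array 4 was -0.002. Over all gene names the medians were then -0.68, -0.24, -0.26 and -0.067, so mitosis genes still lay above the median gene on array 4.

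**Figure D2:**
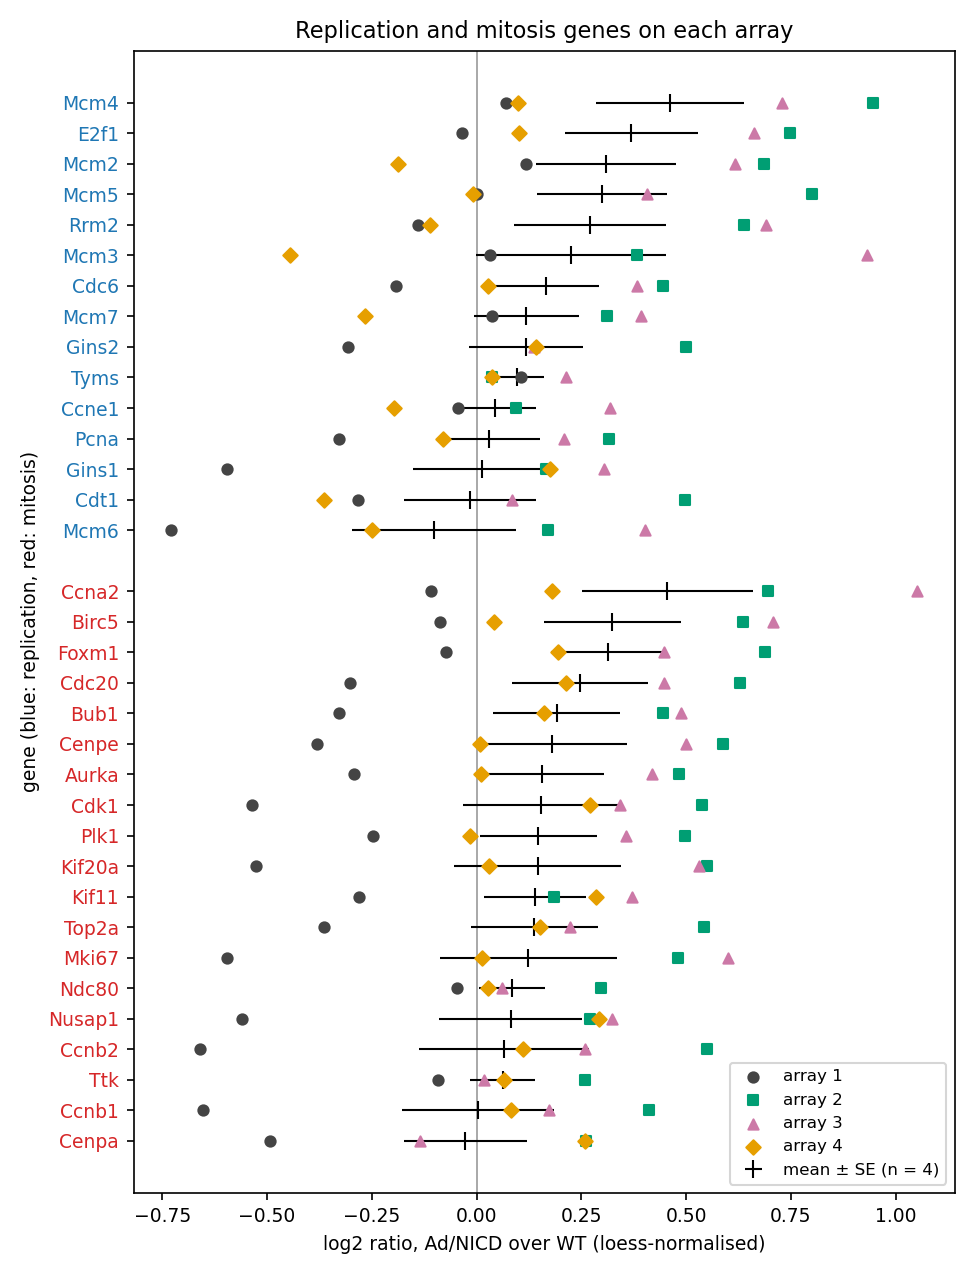
Log2 ratio of Ad/NICD over WT after loess for the 34 measured members, on each of 4 arrays (symbols), with the mean and its SE (black). Array 1 lies left of 0 for all 19 mitosis genes and arrays 2 and 3 right of it for nearly all members. Of the means, 13 of 15 and 18 of 19 lie above 0. With median centring in place of loess 18 of the 19 members described singly change sign, but the median over all gene names is then -0.32.

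The median of replication genes minus that of mitosis genes was 0.28, -0.053, 0.021 and -0.19 on arrays 1 to 4. The mean over arrays was 0.015 ± 0.20 (SD, n = 4), smaller than the spread, and no exact test on 4 arrays could give a two-sided p below 0.125. The signs show the same divide. Of 19 mitosis genes, 17 ran down, up, up and up over arrays 1 to 4. Of 15 replication genes, 4 did so, 5 ran down, up, up and down, 4 ran up, up, up and down, and 2 were up on all 4. Except for up on all 4 (11.1%), the shares of all gene names with these patterns were not counted.

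Read by sample rather than by ratio, mitosis genes had 2 low samples, 1 in each genotype. In WT replicate 2, each of the 19 mitosis genes had its lowest WT level, and in Ad/NICD replicate 1 each had its lowest Ad/NICD level. In the authors' deposited value table, too, both samples were lowest for 19 of 19. Relative to its mean over 8 samples, the median mitosis gene stood at -0.45 in WT replicate 2 and at -0.33 in Ad/NICD replicate 1, on the log2 scale. In Ad/NICD replicate 3 it stood at 0.44, and 15 of 19 had their highest Ad/NICD level there, against 22.8% of all gene names. The other 5 samples lay between 0.030 and 0.16. For replication genes the same samples were lowest for 9 and 14 of 15, or 8 and 14 in the authors' table, with medians of -0.19 and -0.19. Over all gene names these samples were lowest for 28.3% and 30.5%, and both at once for 8.18%. Both at once held for 8 of 15 replication genes, for 23 of 47 other replication genes (48.9%) and for 47 of 60 other mitosis genes (78.3%).

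**Figure D3:**
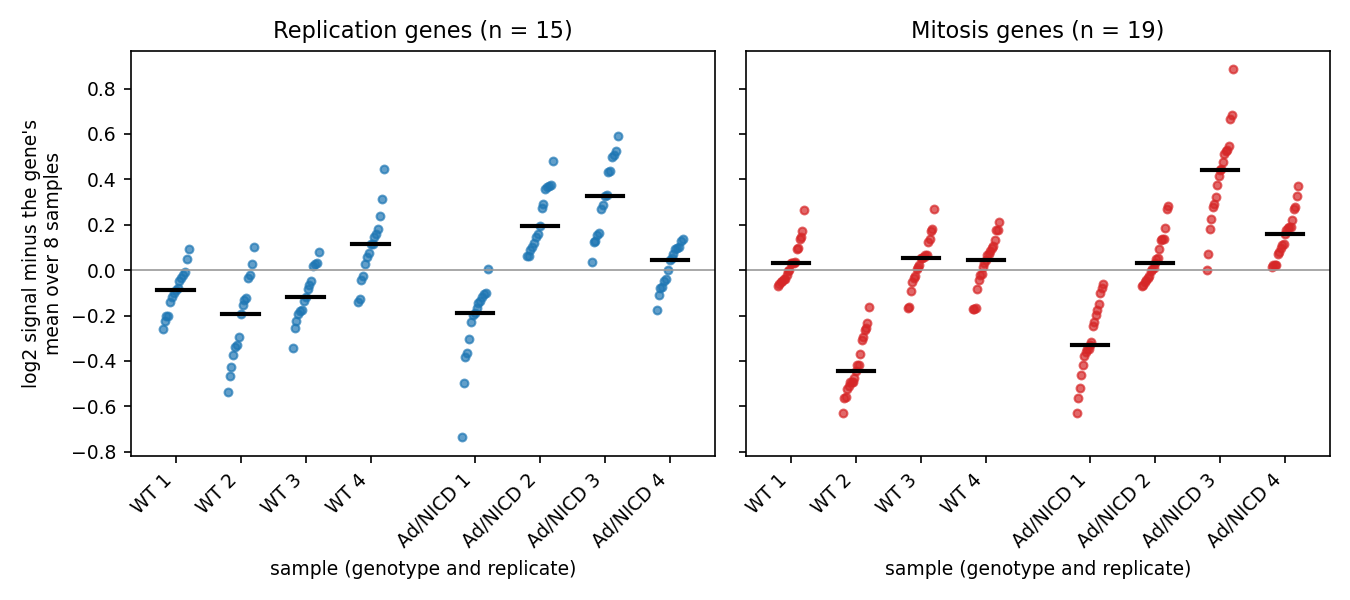
Log2 signal of each replication (left, n = 15) and mitosis gene (right, n = 19) minus its own mean over 8 samples, by genotype and replicate; points are genes and bars are medians. The mitosis genes sit low in WT replicate 2 (-0.45) and Ad/NICD replicate 1 (-0.33) and high in Ad/NICD replicate 3 (0.44), while the replication medians run from -0.19 to 0.33.

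The difference between genotype means was smaller than the range of the 4 WT samples and than that of the 4 Ad/NICD samples for 12 of 15 replication genes, all but Mcm4, Tyms and E2f1, and for 18 of 19 mitosis genes, all but Ccna2. The share over all gene names was not counted, so this does not set the members apart from other genes. The median mitosis gene ranged over 0.56 in WT and 0.77 in Ad/NICD and differed by 0.15 between genotypes. The median replication gene ranged over 0.30 and 0.57 and differed by 0.12. Each array decided part of the list medians: the mitosis median was 0.31 without replicate 1 and 0.026 without replicate 2, and the replication median was 0.26 without replicate 1, 0.073 without replicate 2 and 0.059 without replicate 3. Without replicate 4, where Xist was not above background, the medians were 0.21 for replication and 0.16 for mitosis genes.

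Among replication genes, the MCM subunits spanned the whole range. Mcm4, a helicase subunit, had log2 signals of 11.34, 11.08, 11.32 and 11.51 in WT replicates 1 to 4 and of 11.41, 12.02, 12.05 and 11.61 in Ad/NICD replicates 1 to 4. Ad/NICD replicates 2, 3 and 4 lay above every WT sample and replicate 1 among them. The ratio was 0.46 ± 0.18 (SE, n = 4), a fold of 1.38, and was above 0 on 4 of 4 arrays. The limma fit over all gene names gave it an adjusted p of 0.318. Mcm5 had 10.26, 10.04, 10.34 and 10.60 in WT and 10.26, 10.83, 10.75 and 10.60 in Ad/NICD. Its groups overlapped, with replicates 2 and 3 of Ad/NICD above all WT samples. Mcm2 had 8.998, 8.89, 9.04 and 9.33 in WT and 9.12, 9.58, 9.66 and 9.15 in Ad/NICD, again with only replicates 2 and 3 above WT. Their ratios were 0.30 ± 0.16 and 0.31 ± 0.17 (SE, n = 4), and these are the promoters printed above. Mcm3 had 10.42, 10.38, 10.34 and 11.12 in WT and 10.45, 10.77, 11.27 and 10.68 in Ad/NICD. WT replicate 4 was high in it, and its ratio of 0.23 ± 0.23 (SE, n = 4) became -0.0096 without replicate 3. Mcm6 had 11.96, 12.07, 12.00 and 12.04 in WT and 11.23, 12.24, 12.40 and 11.79 in Ad/NICD. The WT samples lay close together, and Ad/NICD replicates 1 and 4 lay below and 2 and 3 above all of them. Its ratio was -0.10 ± 0.20 (SE, n = 4) and turned to 0.11 without replicate 1, while Mcm7 had 0.12 ± 0.13. Helicase subunits act as 1 ring, and their mean ratios here ran from -0.10 to 0.46.

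The remaining replication genes differed as little. E2f1, a transcription factor that activates replication genes, had log2 signals of 8.80, 8.51, 8.75 and 8.74 in WT and 8.76, 9.25, 9.41 and 8.84 in Ad/NICD. Ad/NICD replicates 2, 3 and 4 lay above every WT sample, and the ratio was 0.37 ± 0.16 (SE, n = 4; limma adjusted p = 0.361). Rrm2, the regulated subunit of ribonucleotide reductase, had 10.31, 9.83, 10.17 and 10.60 in WT and 10.17, 10.46, 10.86 and 10.49 in Ad/NICD. Only Ad/NICD replicate 3 exceeded all WT samples, and the ratio was 0.27 ± 0.18 (SE, n = 4). Tyms, thymidylate synthase, was dim, with 6.61, 6.73, 6.53 and 6.76 in WT and 6.71, 6.77, 6.74 and 6.80 in Ad/NICD. It varied least of the 34 members over arrays, with ratios of 0.10, 0.036, 0.21 and 0.037. Ccne1, cyclin E1, which drives S phase entry, had 9.12, 9.21, 9.19 and 9.36 in WT and 9.08, 9.30, 9.51 and 9.16 in Ad/NICD. Its groups overlapped, and its 2 probes had mean ratios of 0.043 and -0.040, of opposite sign. The licensing factors Cdc6 and Cdt1 had ratios of 0.17 ± 0.13 and -0.016 ± 0.16, and the GINS subunits Gins1 and Gins2 0.013 ± 0.16 and 0.12 ± 0.14 (SE, n = 4). Pcna had 0.029 ± 0.12. The upper bound of the 95% interval for the 15 genes ran from 0.26 (Tyms) to 0.91 (Mcm4).

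The cyclins, Cdk1 and Foxm1, which regulate mitotic entry, spanned almost the whole range of the mitosis genes. Ccna2, cyclin A2, which acts from S phase to early mitosis, had log2 signals of 9.32, 8.88, 9.22 and 9.22 in WT and 9.21, 9.58, 10.27 and 9.40 in Ad/NICD. Ad/NICD replicates 2, 3 and 4 lay above all WT samples, replicate 3 furthest. The ratio was 0.46 ± 0.20 (SE, n = 4), a fold of 1.37, with a limma adjusted p of 0.378 and a 95% interval from -0.060 to 0.97. Foxm1, the transcription factor that activates mitotic genes, had 7.58, 7.17, 7.55 and 7.41 in WT and 7.51, 7.85, 7.998 and 7.61 in Ad/NICD. Here too Ad/NICD replicates 2, 3 and 4 exceeded all WT samples, with a ratio of 0.31 ± 0.14 (SE, n = 4). Its dimmer probe, above background in 1 WT and 2 Ad/NICD samples, had -0.027. Ccnb2, cyclin B2, had 10.04, 9.59, 10.19 and 10.08 in WT and 9.38, 10.14, 10.45 and 10.19 in Ad/NICD. Ad/NICD replicate 1 was the lowest of its 8 samples, and the ratio of 0.065 ± 0.20 (SE, n = 4) turned to -0.096 without replicate 2. Cyclin B1 (Ccnb1) and its kinase Cdk1 had ratios of 0.0037 ± 0.18 and 0.15 ± 0.19. All 3 probes of Ccnb1 lay below 0 on array 1 and above 0 on the other arrays. The probes of Cdk1 did not share that order. The brightest had -0.54, 0.54, 0.34 and 0.27 on arrays 1 to 4. A dimmer kept probe, above background in 2 WT and 4 Ad/NICD samples, had 0.30, -0.00063, 0.22 and -0.14.

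Genes of the spindle checkpoint, the kinetochore and chromosome segregation shared their lowest WT and Ad/NICD samples, though not the order of the rest. Cdc20, the activator of the anaphase-promoting complex, had log2 signals of 9.76, 9.31, 9.87 and 9.78 in WT and 9.46, 9.94, 10.32 and 9.997 in Ad/NICD. Bub1, a checkpoint kinase, had 7.16, 6.87, 7.02 and 7.29 in WT and 6.83, 7.32, 7.51 and 7.45 in Ad/NICD. In both genes Ad/NICD replicates 2, 3 and 4 exceeded all WT samples, while replicate 1 lay among the WT samples for Cdc20 and below them for Bub1. Their ratios were 0.25 ± 0.16 and 0.19 ± 0.15 (SE, n = 4), although only Cdc20 of this pair carries the CHR letters. Birc5, survivin, a passenger protein, had 11.00, 10.43, 11.04 and 11.13 in WT and 10.91, 11.07, 11.74 and 11.17 in Ad/NICD. Only Ad/NICD replicates 3 and 4 exceeded WT, and the 3 probes gave 0.32, 0.028 and 0.13. Kif11, the motor that separates spindle poles, had 7.29, 7.10, 7.24 and 7.42 in WT and 7.01, 7.28, 7.61 and 7.70 in Ad/NICD. Ndc80, which ties kinetochores to microtubules, had 6.78, 6.47, 6.96 and 6.97 in WT and 6.74, 6.77, 7.02 and 6.999 in Ad/NICD. Both had Ad/NICD replicates 3 and 4 above all WT samples, and ratios of 0.14 ± 0.12 and 0.085 ± 0.079 (SE, n = 4). Plk1, a kinase needed throughout mitosis, had 9.70, 9.13, 9.87 and 9.79 in WT and 9.45, 9.63, 10.22 and 9.77 in Ad/NICD. Only Ad/NICD replicate 3 exceeded the WT samples, and the ratio was 0.15 ± 0.14 (SE, n = 4).

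Mki67, the gene of the proliferation antigen Ki-67, gave 11.01, 10.46, 11.05 and 11.16 in WT and 10.42, 10.94, 11.65 and 11.17 in Ad/NICD. It had its lowest level of all in Ad/NICD replicate 1 and its highest in Ad/NICD replicate 3. Its ratio was 0.12 ± 0.21 (SE, n = 4) and -0.034 without replicate 3, and its second probe gave 0.36. Top2a, the topoisomerase that untangles chromosomes, had 0.14 ± 0.15. Ratios of the kinases Aurka and Ttk were 0.16 ± 0.15 and 0.062 ± 0.078, with Ttk above background in 1 WT and 2 Ad/NICD samples only. The kinetochore motor Cenpe had 0.18 ± 0.18 and Cenpa, the 1 mitosis gene with a mean below 0, had -0.027 ± 0.15. The spindle proteins Nusap1 and Kif20a had 0.082 ± 0.17 and 0.15 ± 0.20 (SE, n = 4). The upper bound of the 95% interval ran from 0.26 (Ttk) to 0.97 (Ccna2) over the 19 genes.

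Larger lists, which hold none of the 35 members, gave medians close to those of the members. Of 48 other replication genes 47 were measured, with a median log2 ratio of 0.12 and 39 above 0; 4 were higher and none lower at an unadjusted p under 0.05. Of 64 other mitosis genes 60 were measured, with a median of 0.14 and 55 above 0; 1 was higher at that p and none lower. Regulators of G1 and the Rb-E2F pathway, 24 of 26 measured, had a median of 0.060 with 16 above 0, and 3 were higher and 1 lower. Over all gene names 48.4% were above 0, and 6.25% were higher and 8.98% lower at that p. None of the genes in these lists passed the adjusted threshold in the fit of the ratios. By array, the other mitosis genes had -0.24, 0.40, 0.32 and 0.091 and the other replication genes -0.13, 0.34, 0.32 and -0.0087, the signs of the members' own medians. With median centring in place of loess, the member medians on which these orders rest were below 0, and that of all gene names was lower, at -0.32.

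**Figure D4:**
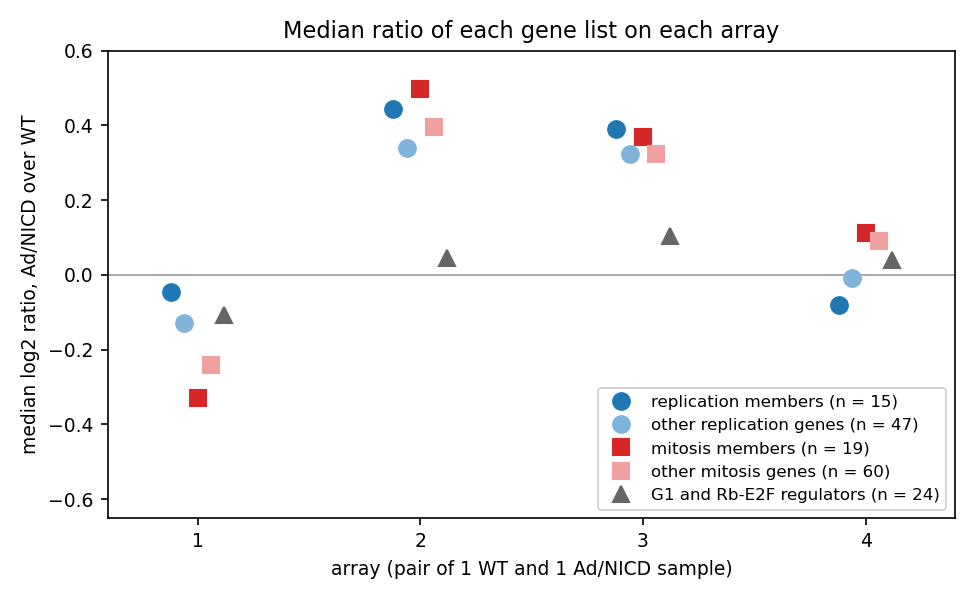
Median log2 ratio of Ad/NICD over WT after loess on each of 4 arrays for the members (dark symbols), the larger replication and mitosis lists (light symbols) and the G1 and Rb-E2F regulators (triangles). Both mitosis lists lie lowest on array 1 (-0.33 and -0.24) and highest on array 2 (0.50 and 0.40), and the triangles stay near 0. Median centring in place of loess puts the medians of the 2 member lists over the arrays below 0, and that of all gene names lower, at -0.32.

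A few genes of these lists held 1 sign on every array. Above 0 on all 4 were 5 of 47 other replication genes, 2 of 60 other mitosis genes and 3 of 24 regulators, against 11.1% of gene names. Below 0 on all 4 were 1 of 47, 0 of 60 and 1 of 24, against 13.3%. Rfc4, a subunit of the clamp loader that sets Pcna on DNA, had log2 ratios of 0.33, 0.81, 0.85 and 0.69 on arrays 1 to 4. Levels of the genotypes did not overlap in Rfc4, as in 9.79% of gene names. The mean was 0.67 ± 0.10 (SE, n = 4), with a limma adjusted p of 0.129. The call changed in the other fits, with an adjusted p of 0.0177 with the array as a random block and 0.0288 with no block. Ung, a glycosylase that removes uracil from DNA, had 0.80, 0.40, 0.45 and 0.33, and Dut, which keeps uracil out, had 0.29, 0.49, 0.60 and 0.22. Ung passed with the random block (adjusted p = 0.0454) but neither in the ratio fit (0.142) nor with no block (0.0728). Rb1, the retinoblastoma protein that holds E2F factors in check, had -0.68, -0.64, -0.56 and -0.27. It too passed only with the random block, at an adjusted p of 0.0338 against 0.130 in the ratio fit. The Rb relative Rbl2 had 0.32 ± 0.092 and Mybl2, a partner of Foxm1, 0.24 ± 0.078 (SE, n = 4), and neither passed in any of the 3 fits. Among other mitosis genes the lowest p values belonged to Cit, Kif18b and Melk, with 0.20 ± 0.072, 0.28 ± 0.11 and 0.45 ± 0.20 (SE, n = 4), all at limma adjusted p of 0.292 or more. Kif18b and Melk were above 0 on only 3 of 4 arrays.

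Markers of the cells that fat can hold moved over the same samples, and their part in the result was not tested. Adipocyte markers had a median log2 ratio of -0.78, with 3 of 14 above 0 and 9 lower at an unadjusted p under 0.05, and medians of -0.41, -1.17, -1.26 and -0.085 on arrays 1 to 4. They ran against the mitosis genes in WT replicate 2, where the median adipocyte marker stood at 0.54 relative to its mean over 8 samples, and in Ad/NICD replicate 3, where it stood at -0.86. In Ad/NICD replicate 1, where every mitosis gene had its lowest Ad/NICD level, the median adipocyte marker stood at -0.31. The lowest p values of the list were those of Adrb3, Adig and Cebpa, with ratios of -1.87, -1.04 and -0.93. With the array as a random block, Adrb3, Adig and a further marker, Retn (-1.83), passed the threshold at adjusted p of 0.0392, 0.0226 and 0.0474, against 0.114, 0.131 and 0.156 in the ratio fit, and Adig also did with no block (0.0350). Progenitor markers had a median of 0.26 with 9 of 10 above 0 and 3 higher at an unadjusted p under 0.05, led by Pdgfrb (0.53), Dlk1 (0.73) and Zfp423 (0.28). Over all gene names 48.4% were above 0, and 6.25% were higher and 8.98% lower at that p. By array the progenitor medians were -0.17, 0.54, 0.046 and 0.75. They were low on array 1 and high on array 2, as the mitosis genes were. On arrays 3 and 4 they differed from the mitosis medians of 0.37 and 0.11. Progenitor markers were lowest of WT in replicate 2 for 2 of 10 genes. They were lowest of Ad/NICD in replicate 1 for 7 of 10, and both at once held for 1 of 10.

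Immune markers followed the low samples only in part. T cell markers were lowest of WT in replicate 2 for 8 of 8 genes, but lowest of Ad/NICD in replicate 1 for 0 of 8, and their median ratio was 0.041. B cell markers were lowest there for 6 and 4 of 7 (median ratio -0.19) and erythroid markers for 5 and 3 of 5 measured (-0.61). Macrophage markers were lowest there for 2 and 6 of 10, with a median ratio of 0.0090 and medians of -0.31, 0.21, -0.10 and 0.55 by array. The genes with the lowest p were Cd3g, Lck and Cd2 (0.20, 0.17 and 0.11) for T cells, Ms4a1 and Cd79b (-0.48 and -0.56) for B cells, Alas2, Hbb-b1 and Hbb-bt (-0.61, -0.88 and -0.80) for red cells, and Itgam, Mrc1 and Fcgr1 (0.42, 0.65 and 0.80) for macrophages. Endothelial markers had a median ratio of -0.32 with 0 of 8 above 0, against 48.4% of gene names, and Cldn5, Kdr and Robo4 had -1.21, -0.37 and -0.56. Mammary epithelium markers had a median of -0.40 over 8 of 10 measured, with Krt5, Csn3 and Krt8 at -0.94, -0.16 and -0.36, and skeletal muscle markers had -1.70, with Tnnc2, Mb and Myh4 at -2.61, -0.94 and -2.48. Of 9 testis germ cell markers 5 were measured, with a median of -0.0088 and Prm2, Sycp3 and Tnp1 at 0.20, -0.51 and 0.043. No marker of these lists passed the adjusted threshold in the ratio fit, where Cldn5 had an adjusted p of 0.113, but in the random-block fit Cldn5 did pass (0.0310).

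**Figure D5:**
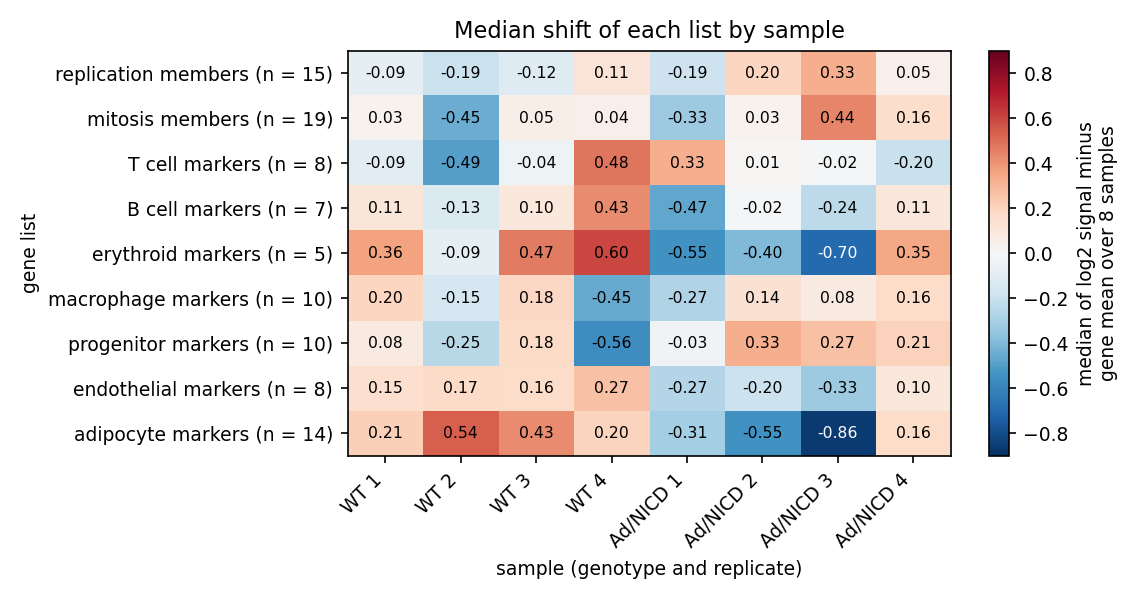
Median over each list of the log2 signal minus the gene's mean over 8 samples, by sample, with the value in each cell (blue below the mean, red above). The mitosis row is low in WT replicate 2 (-0.45) and Ad/NICD replicate 1 (-0.33); the T cell row is low in the first (-0.49) and not the second (0.33), and the adipocyte row is high in the first (0.54).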

How the data were processed

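Total RNA of 8 white adipose samples was labelled with Cy3 or Cy5 and read on 4 Agilent arrays of 2 colours. Per the submitters' processing notes, Agilent Feature Extraction 11.5 read the scans. The deposited tables hold intensity values per spot and a log10 ratio of red over green. A further deposited table holds the authors' values on a log2 scale: each WT column equalled the green and each Ad/NICD column the red processed signal, less a constant that sets its 75th percentile to 0 (medians -3.84 to -3.52). How that table was made, and the genome build of the files, is not given in the sources read here. Same-numbered WT and Ad/NICD scanner tables were identical, and each array was counted once, with its 2 samples as a pair.

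From the median foreground and background, signals were corrected by normexp (offset 50) and normalised in limma 3.58.1 (R 4.3.3) by loess, which gave control spots weight 0. A probe was kept if 3 or more arrays had it well above background in either channel. Flags of array 1 were rebuilt from its negative controls, a rule that matched 98.3% to 99.7% of the scanner's flags elsewhere. The brightest kept probe stood for a gene name, and 28026 probes took their symbol from RefSeq (GRCm38.p6). The 4 log2 ratios were tested against 0 with lmFit and eBayes and adjusted by Benjamini-Hochberg over all 25115 gene names (threshold 0.05). Levels are log2 channel signals after loess and scaling of average brightness between arrays. This is the paired fit: deviations of the samples of 1 array from their group means correlated at 0.17, 0.17, 0.56 and 0.53, and the pairing comes from the shared array. For replicates 1 and 3 the highest correlation with a sample of another number was 0.29, above the 0.17 that replicate 1 had within its array. The scripts were tested on simulated data.

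The members and lists were chosen with earlier results of these data known. Members given by sample are the 6 replication and 8 mitosis genes with the lowest p (none passed the threshold), the 2 of each group with the widest range of ratios, and those whose kept probes differ in sign. From every other list the 3 genes with the lowest p are named, except 1 that is not reported here. Printed promoters belong to the 2 members per group with the lowest p whose window holds a motif. Other normalisations, filters, probe rules, variance models, fits of separate channels and left-out replicates were tried as alternatives.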

Additional observations from a re-analysis of the deposited data

Results flagged for a closer look

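Of 106 sets of 4 values (each member's WT levels, Ad/NICD levels and ratios, and the medians of the 2 groups of genes), 6 held a sample whose gap to its nearest neighbour took up more of the set's range than Dixon's 95% critical value for 4 samples allows. Chance flags about 1 set in 20. Mcm3 had a log2 level of 11.12 in WT replicate 4, where the nearest WT sample had 10.42. Pcna had 11.68 in Ad/NICD replicate 1, below a nearest value of 12.14. Aurka had 8.17 in WT replicate 2, against 8.66 for the nearest, and the median level of the mitosis genes was 8.14 in that sample, against 8.65. On array 1 the log2 ratio of Gins1 was -0.59, where the nearest array had 0.17. On the same array that of Nusap1 was -0.56, where the nearest had 0.27.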

How the results depend on the processing

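In all 13 alternatives 0 members passed the threshold, and the lowest adjusted p of any member was 0.119. The count of gene names past it was 12, and 0 with median centring, with no filter on dim probes and with eBayes by trend and robust, 5 from the processed signals, 3 from the authors' value table, and 0 to 43 without 1 replicate. Without the replicate block it was 258, and with the array as a random replicate block 500; neither pairing choice changed the call of a member. Both list medians stayed above 0 in every alternative except median centring in place of loess. Unlike loess, that centring makes no correction for a dye bias that depends on brightness, and such a bias was not tested here. This centring used all spots that are not controls, before the filter on dim probes. It put the median over all gene names at -0.32 and those of the lists at -0.24 (replication) and -0.26 (mitosis). It turned Mcm4 to -0.013, E2f1 to -0.11, Mcm5 to -0.21, Mcm2 to -0.19, Tyms to -0.024, Rrm2 to -0.24, Mcm3 to -0.28 and Ccne1 to -0.45, and Foxm1 to -0.022, Ccna2 to -0.047, Birc5 to -0.17, Cdc20 to -0.26, Bub1 to -0.047, Kif11 to -0.13, Ndc80 to -0.075, Plk1 to -0.36, Ccnb2 to -0.45 and Mki67 to -0.37. Leaving out 1 replicate turned the sign of 12 of 34 members, and the share over all gene names was not counted. Of the 19 given by sample, 5 turned: ratios ran from -0.0096 to 0.45 for Mcm3, -0.27 to 0.11 for Mcm6, -0.096 to 0.31 for Ccnb2, -0.034 to 0.36 for Mki67 and -0.049 to 0.12 for Ccne1. Of the other 15, 7 turned: Pcna, Gins1, Gins2, Cdt1, Ccnb1, Cenpa and Ttk. The list medians ran from 0.059 to 0.26 and from 0.026 to 0.31. The 4 arrays and the lack of a dye swap limit every value, and Aurkb and Ttk are limited by signal near background.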
